A study of Drosophila melanogaster with 12 samples.

Results

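Rt1 elements are the LINE retrotransposons listed as DMRT1A, DMRT1B and DMRT1C, and their small RNAs were followed in fly gonads with and without an added Y chromosome. The members were all entries of class TE (transposable elements and other repeats) whose name starts with DMRT1, on either strand. This rule gave 6 of the 968 entries of the ovary table (384 of them TE) and 5 of the 845 entries of the testis table (298 of them TE), where DMRT1C was listed on the Plus strand alone. Small RNAs were sequenced from ovaries and testes dissected from 2-day-old *Drosophila melanogaster* reared at 23 °C. The ovary groups were XXYcongo (labelled X^X/Ycongo), XXYohio (X^X/Yohio) and the control XX (X^X), and the testis groups were XYYcongo (X^Y/Ycongo), XYYohio (X^Y/Yohio) and the control XY (X^Y). Each of the 6 groups had 2 biological replicates. The labels do not explain the caret, which fly geneticists can use for attached chromosomes, and say only that the added-Y strains were made by genetic manipulation. The Yohio columns are headed Cs in the tables and were assigned by elimination, so every Yohio value rests on that reading.

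LINEs move through an RNA copy that is reverse transcribed at the insertion site, and Rt1 belongs to the R1 clade, named after an element that inserts into ribosomal RNA genes. In fly gonads, transposons are held down by piRNAs, small RNAs bound by Piwi-family proteins. A piRNA antisense to an element can guide the cleavage of its transcripts or the silencing of its copies, and sense piRNAs arise in germ cells when transcripts are cut in the amplification cycle. The tables give no read lengths, so the values are all small RNA reads assigned to an element. Plus and Minus are the strands of the listed entry, and which of them is antisense is not stated in the tables.

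Rt1 was among the most abundant sources of transposon small RNA in ovary and a minor one in testis. By reads, DMRT1B Minus ranked 1 of the 384 TE entries in each XXYcongo and XXYohio library, and 3 and 2 in XX. DMRT1A Minus ranked 6 and 8 in XXYcongo, 4 in each XXYohio library, and 8 and 7 in XX. In testis DMRT1B Minus ranked between 18 and 23 of 298 and DMRT1A Minus between 26 and 47. Rt1 took 9.43% to 12.4% of TE reads in the 6 ovary libraries and 1.53% to 1.83% in the 6 testis libraries, a difference set across tables that were normalized separately but that rests on shares within each library.

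The genome annotation used here (BDGP6.54) lists 123 insertions of Rt1, of which 60 are named Rt1b, 33 Rt1c and 30 Rt1a. Matching these by name to DMRT1B, DMRT1C and DMRT1A gives a view of the copies behind each entry, although no source used here gives the authors' build or repeat set. Chromosome arm 2R carries 53 of the 123 insertions (43.1%), compared with 25.2% of all 5896 annotated transposon insertions. The Y carries 0 of them, although 80 transposon insertions of other kinds are annotated there. The annotated Y is that of the reference strain, not of the Congo or Ohio chromosomes. The insertions differ in completeness: 11 of the Rt1a, 10 of the Rt1b and 1 of the Rt1c insertions are at least 4000 bases long, and the median lengths are 1974, 1552 and 1044 bases. Long copies lie both in and between genes. An Rt1a copy of 5193 bases at 3L:1424822-1430014 on the plus strand overlaps an exon of Ptp61F, a protein tyrosine phosphatase gene, and an Rt1b copy of 5195 bases at 3L:13574910-13580104 on the plus strand lies in an intron of bru3, a gene of the Bruno family of RNA-binding proteins.

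**Figure D1:**
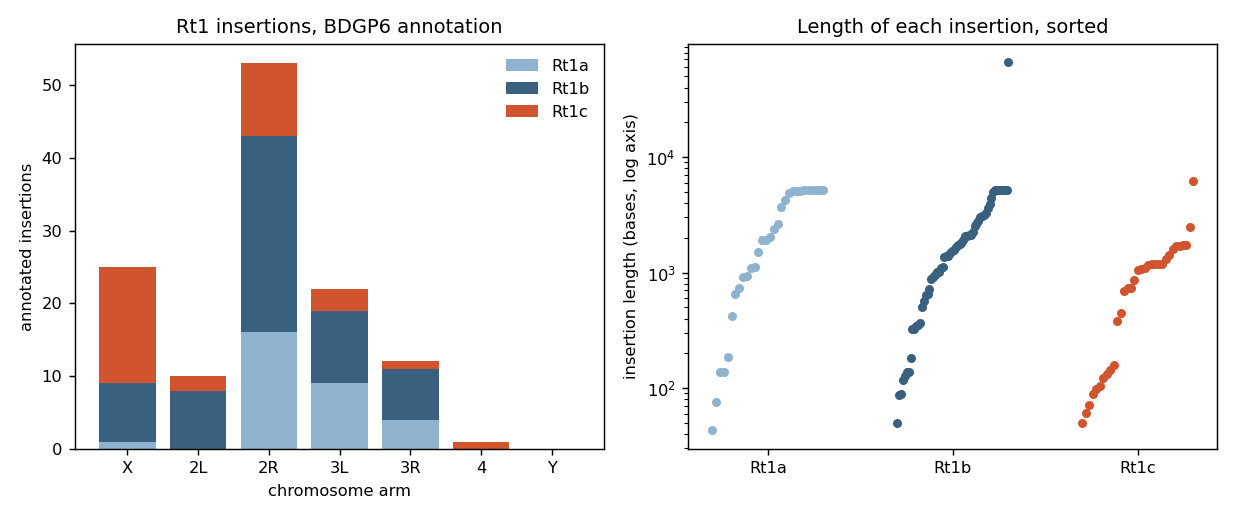
Rt1 insertions in the BDGP6.54 annotation. Left, the number of insertions on each chromosome arm, stacked by element, with 53 on 2R and 0 on Y. Right, the length of each insertion in bases on a log axis, sorted within each element; a single Rt1c insertion and 11 Rt1a insertions are at least 4000 bases, and 1 Rt1b entry is annotated at 66001 bases.

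The values below are the deposited ones, which are reads multiplied by 1 factor per library. Non-spike reads per library ran from 897596 to 2663239 in ovary and from 589490 to 1310076 in testis. Rt1 reads ran from 22022 to 125920 in ovary and from 1146 to 5014 in testis, so the testis values carry more counting error. Spike-in reads made up 6.35% to 24.7% of all listed reads in ovary and 17.6% to 76.3% in testis. Suste entries, repeats of the Y-linked locus whose small RNAs are known from the male germline, took 7.42% to 15.7% of non-spike reads in testis libraries. They took 0.528% to 1.07% in ovaries with an added Y and 0.0552% and 0.0691% in XX ovaries, so the ranges of the 2 tissues, and of ovaries with and without a Y, did not overlap.

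In ovary, DMRT1B and DMRT1A small RNAs were higher in XXYcongo than in XX on both strands, whereas DMRT1C was not. As deposited, 4 of the 6 entries rose and none fell in limma's test with Benjamini-Hochberg adjustment over all 791 entries tested. The background was broad: 49.8% of the entries tested were called, 45.5% as higher, and the median of all entries was 0.74 on the log2 scale against 0.93 for the 6 members. Transposons rose more than the table as a whole: 71.4% of the 339 TE entries tested were called higher, with a median of 1.13, above that of the Rt1 entries. The rise of these Rt1 entries thus came with a shift of the median of the whole table.

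DMRT1B Minus, the entry with the most reads, had 25751 and 24943 in XXYcongo, 14060 and 15656 in XXYohio, and 10048 and 8652 in XX. The 3 groups did not overlap, with XXYcongo highest and XX lowest. With 2 libraries a group such separation was common. On the deposited scale, 71.4% of the 339 TE entries tested were called higher in XXYcongo over XX. Shares of TE reads are on another scale and sum both strands. By that measure, 43.0% of 179 other elements were higher in both XXYcongo libraries than in both XX libraries. For XXYohio against XX it was 28.5%. The log2 fold change of DMRT1B Minus was 1.44 ± 0.19 (SE, adjusted p = 4.30e-05 in limma) in XXYcongo over XX. DMRT1B Plus had 4961 and 4103 in XXYcongo, 2400.1 and 2531 in XXYohio, and 2403 and 1663 in XX. Both XXYcongo libraries lay above the rest, while those of XXYohio and XX overlapped. DMRT1B Plus rose by 1.17 ± 0.23 in XXYcongo over XX (adjusted p = 0.00098, limma).

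DMRT1A Minus had 13271 and 12193 in XXYcongo, 6949 and 8056 in XXYohio, and 7091 and 6748 in XX. DMRT1A Plus had 4514 and 3277 in XXYcongo, 1625 and 1701 in XXYohio, and 2237 and 1676 in XX. On both strands the XXYcongo libraries were the highest, and the XXYohio and XX libraries overlapped. The fold changes of XXYcongo over XX were 0.88 ± 0.19 for DMRT1A Minus (adjusted p = 0.00189, limma) and 0.99 ± 0.24 for DMRT1A Plus (adjusted p = 0.00367, limma).

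DMRT1C, the element with a single long annotated copy, had far fewer reads and another pattern. DMRT1C Minus had 109.8 and 141 in XXYcongo, 66.6 and 83.7 in XXYohio, and 174 and 186 in XX. Here XX had another place: both XX libraries were the highest, both XXYohio libraries the lowest, and no groups overlapped. XXYcongo lay above XXYohio, as it did for DMRT1B Minus. Separation from XX was common among shares of TE reads, which are on another scale than these values and sum both strands. By that measure, 31.3% of 179 other elements were lower in both XXYcongo libraries than in both XX libraries. For XXYohio against XX it was 34.1%. On the deposited scale, 4 of the 339 TE entries tested were called lower in XXYcongo over XX and 5 in XXYohio over XX. In XXYohio over XX, DMRT1C Minus fell by 1.26 on the log2 scale (SE 0.28, adjusted p = 0.0251, limma). In XXYcongo over XX it was -0.53 ± 0.28 (adjusted p = 0.144, limma). DMRT1C Plus had 64.6 and 75.9 in XXYcongo, 60.8 and 44.1 in XXYohio, and 69.0 and 51.7 in XX. These groups overlapped apart from XXYcongo against XXYohio, and DMRT1C Plus was not called in any of the 3 ovary contrasts (adjusted p from 0.279 to 0.772, limma).

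**Figure D2:**
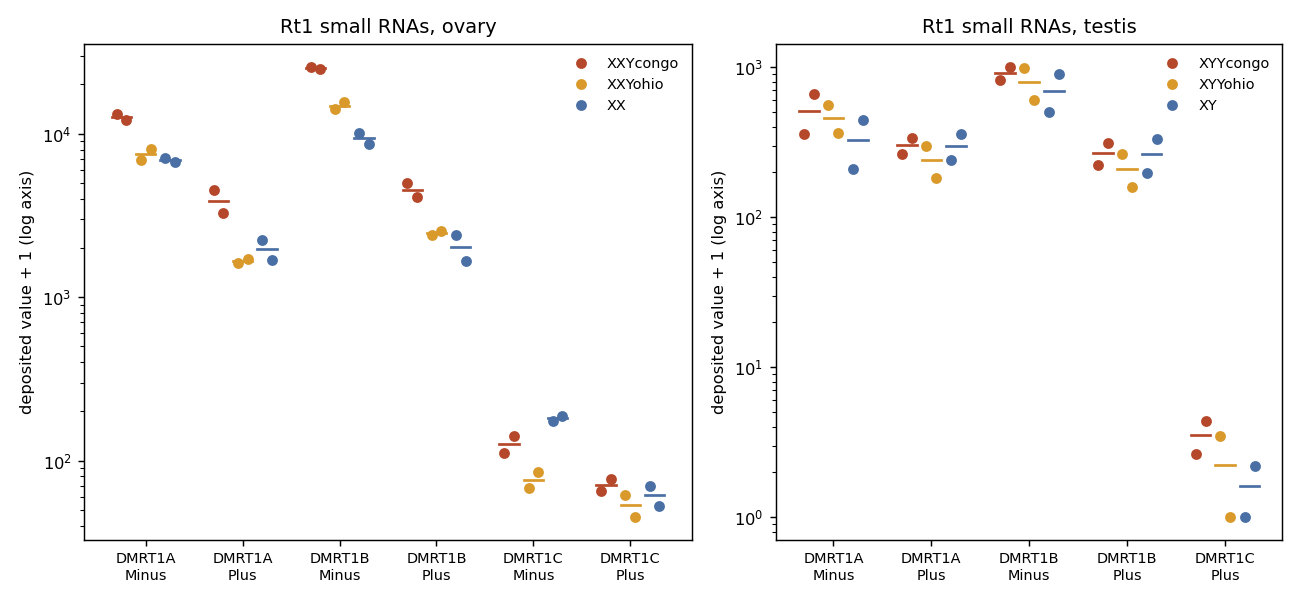
Deposited values of each Rt1 entry in every library, plus 1, on a log axis, for ovary (left) and testis (right). Points are libraries and bars are the means of the 2 replicates. In ovary the XXYcongo libraries lie highest for DMRT1A and DMRT1B, with DMRT1B Minus at 25751 and 24943, while for DMRT1C Minus the XX libraries lie highest at 174 and 186. In testis the groups overlap for all 4 DMRT1A and DMRT1B entries.

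DMRT1C Minus was the 1 member called in XXYohio over XX, where 3.29% of all entries were called and 0.759% as lower. The call was lost, with the value still negative, when 1 library was left out: the adjusted p was 0.282 without XXYohio replicate 1, 0.124 without XX replicate 1 and 0.126 without XX replicate 2 (limma). Under spike-in scaling, which puts the median of all entries at 1.33, the DMRT1C Minus value was 0.01 and was not called. DMRT1B Minus was higher in both XXYohio libraries than in both XX libraries, by 0.67 ± 0.19, but did not pass (adjusted p = 0.0833, limma). The other 4 entries lay between -0.22 and 0.30. The medians were -0.04 for the 6 members and 0.10 for all entries.

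Between the 2 added Y chromosomes, 5 of the 6 entries were higher in XXYcongo than in XXYohio, against a background of 49.1% called and 44.9% called as higher. The fold changes were 1.21 ± 0.24 for DMRT1A Plus (adjusted p = 0.00114, limma), 0.87 ± 0.23 for DMRT1B Plus, 0.77 ± 0.19 for DMRT1B Minus, 0.77 ± 0.19 for DMRT1A Minus and 0.73 ± 0.28 for DMRT1C Minus (adjusted p = 0.0475, limma, and 0.0502 in edgeR). The median was 0.77 over the 6 members, 0.83 over all entries and 1.098 over the 339 TE entries, of which 72.9% were called higher. All but DMRT1A Plus lay close to or below the median of the table, and DMRT1C Plus (0.43 ± 0.32) was not called. The XXYcongo libraries enter this contrast and that with XX, and the XX libraries enter both contrasts with XX.

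How far the ovary values rest on scale can be seen from another scaling. Under TMM, which sets the bulk of entries equal between libraries, the median of all entries in XXYcongo over XX was -0.0007 in place of 0.74, and 179 entries were called higher and 149 lower, in place of 360 and 34. DMRT1B Minus was then the only member that rose (0.67), DMRT1C Minus fell (-1.30, adjusted p = 0.00479, limma), and DMRT1A Minus (0.10), DMRT1A Plus (0.21) and DMRT1B Plus (0.40) were not called. Under TMM none of the 6 entries was called in XXYcongo over XXYohio, where 0 also passed an unadjusted p of 0.05, while edgeR on the reads with the deposited scale called 4. A scaling shifts all entries of a library alike, so the place of an entry among the others is nearly the same under any of them. By fold change in XXYcongo over XX, 215 of the 791 entries tested lay above DMRT1B Minus and 275 above DMRT1B Plus. For DMRT1A, 320 lay above the Plus entry and 351 above the Minus entry. DMRT1C Minus lay near the low end, with 74 entries below it, 8 of them TE. In XXYohio over XX, 117 entries lay above DMRT1B Minus and 9 below DMRT1C Minus, 7 of them TE. Both contrasts share the XX libraries.

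**Figure D3:**
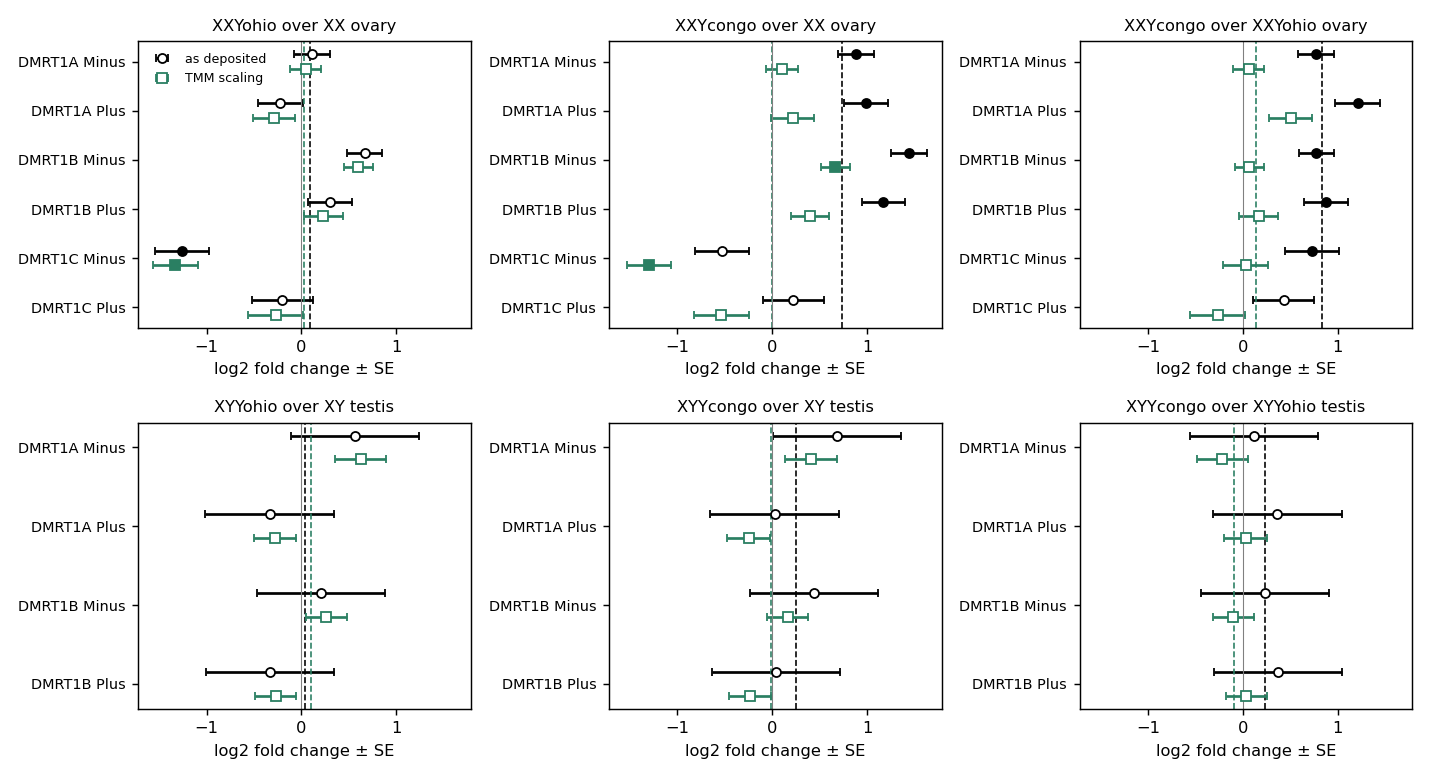
Log2 fold changes of the Rt1 entries with standard errors, in the 3 ovary contrasts (top) and the 3 testis contrasts (bottom). Circles are the deposited values and squares TMM scaling; filled symbols passed an adjusted p under 0.05 in limma, and dashed lines mark the median of all entries tested under each scaling. In XXYcongo over XX the deposited median is 0.74, DMRT1B Minus lies above it at 1.44 and DMRT1C Minus below it at -0.53.

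Other measures moved with the XXYcongo group. TE reads made up 45.4% and 42.1% of non-spike reads in XXYcongo, 22.9% and 29.2% in XXYohio, and 25.8% and 22.4% in XX. The rDNA entries made up 36.5% and 37.1% in XXYcongo, 60.8% and 51.4% in XXYohio, and 56.0% and 61.5% in XX. The 19 entries of errantiviruses known from ovarian somatic cells (GYPSY, ZAM, IDEFIX, GTWIN and TABOR) together made up 3.04% and 2.46% of TE reads in XXYcongo, 1.87% and 2.05% in XXYohio, and 1.79% and 1.91% in XX. All 19 had reads in every ovary library, except that TABOR_LTR Plus was at 0 in XXYohio replicate 2 and GTWIN_LTR Plus at 0 in XX replicate 2. The part of these differences in the Rt1 values was not tested. In whole gonads, fewer cells of a type and less RNA per cell cannot be told apart.

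The make-up of the Rt1 reads themselves does not depend on the scale of a library. DMRT1B made up 63.1% and 64.9% of Rt1 reads in XXYcongo, 65.4% and 64.8% in XXYohio, and 56.5% and 54.4% in XX. DMRT1A made up 36.5% and 34.6% in XXYcongo, 34.1% and 34.8% in XXYohio, and 42.4% and 44.4% in XX. Both added-Y ovaries thus had more DMRT1B and less DMRT1A among their Rt1 reads than XX ovaries, with no overlap. These elements make up nearly all Rt1 reads, so the higher DMRT1B share and the lower DMRT1A share are the same observation. DMRT1C made up 0.358% and 0.484% in XXYcongo, 0.506% and 0.455% in XXYohio, and 1.103% and 1.25% in XX. In XX replicate 1 the 95% Wilson interval of the DMRT1C share was 0.974% to 1.25%, and in XXYcongo replicate 2 it was 0.444% to 0.529%. These intervals cover counting error only. The shares were not tested, and an exact two-sided test of 2 libraries against 2 cannot go below p = 0.333. How often shares within other families separate in this way was not counted. For shares of TE reads, separation from XX was common among 179 other elements. In XXYcongo 43.0% were higher and 31.3% lower, and in XXYohio 28.5% were higher and 34.1% lower.

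In testis the composition differed less between groups. DMRT1B made up 62.5% and 56.8% of Rt1 reads in XYYcongo, 59.3% and 58.4% in XYYohio, and 60.9% and 60.6% in XY. The XYYcongo libraries lay on both sides of the XY libraries, and those of XYYohio lay just below them. DMRT1C reached only 2 and 4 reads in XYYcongo, 3 and 0 in XYYohio, and 0 and 3 in XY. A count of 0 allows up to 3 reads, so no difference in DMRT1C was detectable in testis at this depth, and with a mean value of 1.45 it was under the limit of 5 for testing.

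As a share of TE reads, Rt1 was higher with an added Y in both tissues. In ovary the share was 10.4% and 9.91% in XXYcongo, 12.4% and 11.7% in XXYohio, and 9.52% and 9.43% in XX. In testis it was 1.73% and 1.72% in XYYcongo, 1.83% and 1.80% in XYYohio, and 1.53% and 1.56% in XY. In each tissue the Yohio libraries were highest, the Ycongo libraries next and the controls lowest, with no overlap. Shares higher in both libraries than in both controls were common among the other elements: 43.0% of 179 in XXYcongo, 28.5% of 179 in XXYohio, 35.0% of 137 in XYYcongo and 37.2% of 137 in XYYohio. A share lower in both Ycongo libraries than in both Yohio libraries was found for 25.7% in ovary and 27.7% in testis. The order held in both tissues for the sum but for no single Rt1 element. Of 135 other single elements, 0 kept it in both tissues without overlap. Sums of other related elements were not counted. DMRT1B kept it in ovary, where DMRT1A overlapped between XXYohio and XX. In testis DMRT1A kept it, with 0.646% and 0.741% in XYYcongo, 0.744% and 0.751% in XYYohio, and 0.598% and 0.616% in XY. DMRT1B in testis took 1.079% and 0.978% in XYYcongo, 1.09% and 1.05% in XYYohio, and 0.931% and 0.947% in XY, so its added-Y groups overlapped. The 95% Wilson intervals in testis were 1.65% to 1.80% in XYYcongo replicate 1 and 1.73% to 1.88% in XYYohio replicate 2, so the intervals of the added-Y groups overlap.

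**Figure D4:**
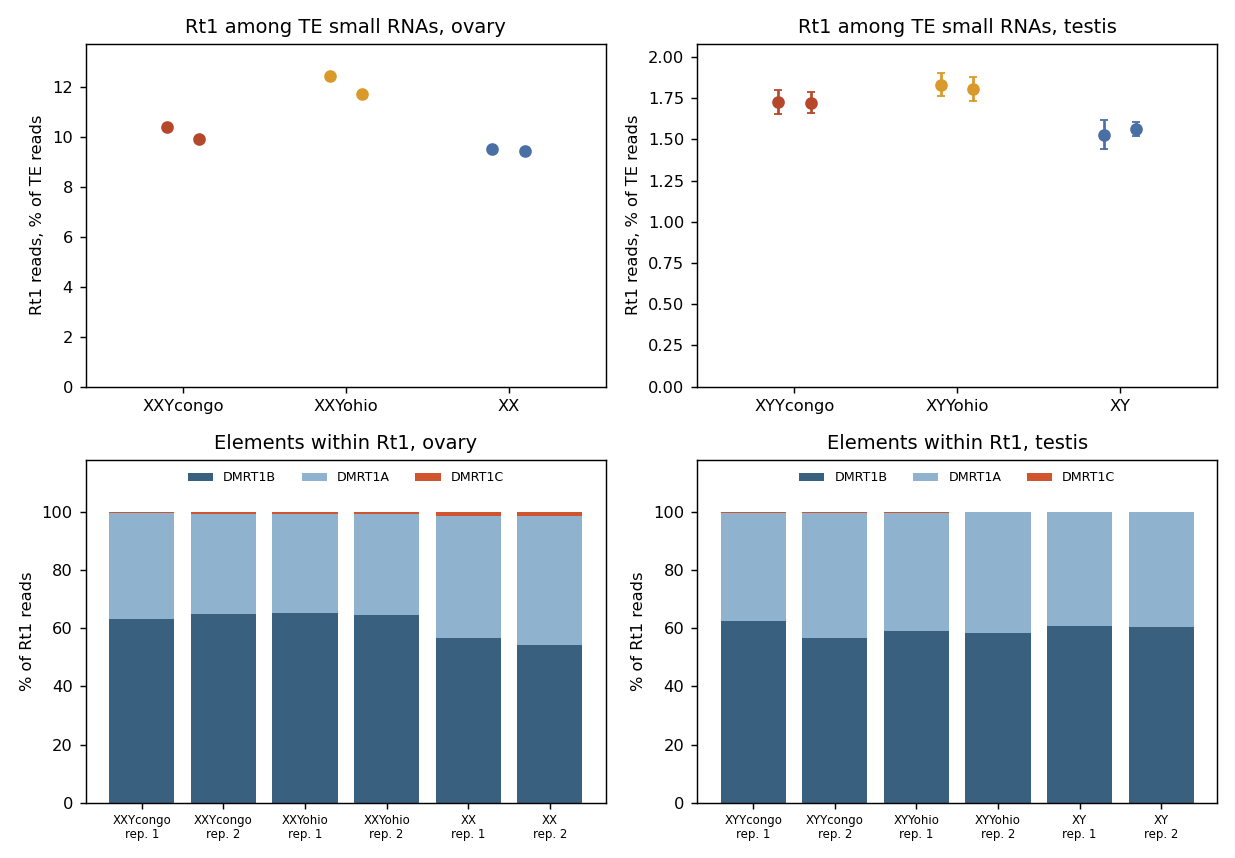
Top, Rt1 reads as a percentage of TE reads in each library, with 95% Wilson intervals, in ovary (left) and testis (right). Bottom, the percentage of Rt1 reads from DMRT1A, DMRT1B and DMRT1C in each library. The Rt1 share is highest in the Yohio libraries of both tissues (12.4% and 11.7% in ovary), and DMRT1B takes 63.1% to 65.4% of Rt1 reads in added-Y ovaries against 56.5% and 54.4% in XX.

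By element, the higher ovary share lay in DMRT1B. DMRT1B took 6.57% and 6.43% of TE reads in XXYcongo, 8.13% and 7.60% in XXYohio, and 5.38% and 5.12% in XX. DMRT1A took 3.80% and 3.43% in XXYcongo, 4.24% and 4.08% in XXYohio, and 4.03% and 4.18% in XX. So the DMRT1A share was lower in XXYcongo than in XX and overlapped between XXYohio and XX. DMRT1C took 0.0373% and 0.0480% in XXYcongo, 0.0630% and 0.0534% in XXYohio, and 0.105% and 0.118% in XX, the highest in XX. A share lower in both libraries than in both XX libraries was found for 31.3% of the 179 other elements in XXYcongo and 34.1% in XXYohio.

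Per 1000 bases of the long annotated copies, the order of the elements was the same in every ovary group. The denominators were the median lengths of insertions from 4000 to 7000 bases, a range set after the lengths were seen: 5149 bases for Rt1a, 5170 for Rt1b and 6169 for the 1 long Rt1c. DMRT1B averaged 5779 per 1000 bases in XXYcongo, 3351 in XXYohio and 2202 in XX. DMRT1A averaged 3229 in XXYcongo, 1780.0 in XXYohio and 1724 in XX, below DMRT1B in each. DMRT1C averaged 31.7 in XXYcongo, 20.7 in XXYohio and 39.0 in XX, and its neighbour in this order was far above it in every library.

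Rt1 reads came mostly from the Minus strand in both tissues, as did those of most transposons listed on both strands. The median Minus share was 73.2% over 158 such elements in ovary and 74.2% over 99 in testis. Over all libraries of a tissue DMRT1B lay above this median in both (84.6% in ovary and 76.5% in testis), DMRT1A above it in ovary (78.3%) and below it in testis (60.8%), and DMRT1C below it in ovary (67.5%). The Minus strand held 80.4% and 83.3% of Rt1 reads in XXYcongo, 83.8% and 84.8% in XXYohio, and 78.6% and 82.1% in XX. In testis it held 70.7% and 72.0% in XYYcongo, 73.4% and 74.0% in XYYohio, and 61.9% and 66.0% in XY. The XY libraries were thus the lowest in testis, with no overlap with either added-Y group, whereas the ovary groups XXYcongo and XX overlapped. Among the other elements, the Minus share was likewise higher in both libraries than in both XY libraries for 29.9% of 97 in XYYcongo and 28.9% in XYYohio.

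The testis difference was largest for DMRT1A. Its Minus share was 57.5% and 66.4% in XYYcongo, 65.4% and 66.6% in XYYohio, and 46.4% and 55.3% in XY, so that in XY replicate 1 the strands were near balance (95% Wilson interval 41.9% to 51.1%). DMRT1B had Minus shares of 78.6% and 76.4% in XYYcongo, 79.1% and 79.3% in XYYohio, and 71.8% and 73.0% in XY. No strand ratio of a member passed the adjusted threshold in any of the 6 contrasts. The nearest were DMRT1A in XYYohio over XY, with a log2 Minus over Plus ratio higher by 0.90 ± 0.32 (adjusted p = 0.155, unadjusted p = 0.0234, limma), and DMRT1C in XXYohio over XX, with -1.05 ± 0.32 (adjusted p = 0.151, unadjusted p = 0.0208, limma). These were the 2 member ratios at an unadjusted p under 0.05. In the same contrasts 18.2% and 22.2% of all TE elements with both strands had an unadjusted p under 0.05, and 9.09% and 4.43% were called. In the other contrasts 5.06% were called in XXYcongo over XX, 0.633% in XXYcongo over XXYohio, 4.04% in XYYcongo over XY and 2.02% in XYYcongo over XYYohio. The DMRT1C Minus share was 63.0% and 65.0% in XXYcongo, 52.3% and 65.5% in XXYohio, and 71.6% and 78.2% in XX, lower in each added-Y library than in either XX library. The same held for 21.3% of 155 other elements in XXYcongo and 27.1% in XXYohio.

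**Figure D5:**
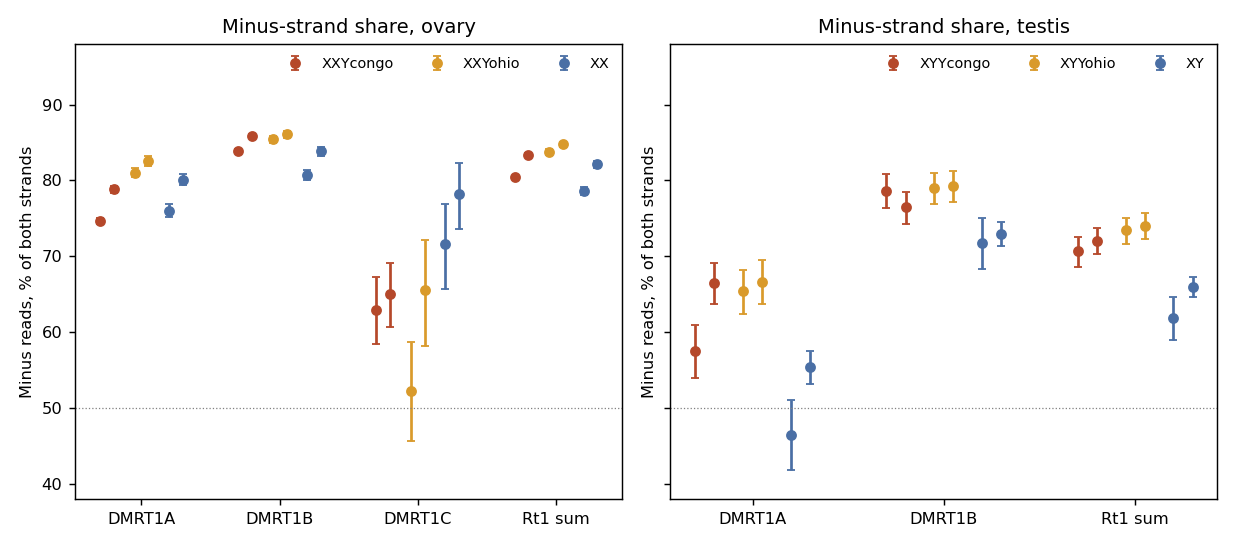
Minus-strand reads as a percentage of the reads on both strands, for each Rt1 element and their sum, in ovary (left) and testis (right). Points are libraries with 95% Wilson intervals and the dotted line marks 50.0%. DMRT1A in testis lies at 46.4% and 55.3% in XY, below the added-Y libraries, and DMRT1C in ovary lies at 71.6% and 78.2% in XX, above them.

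By level, no Rt1 entry passed the test in testis. DMRT1B Minus had 816 and 1008 in XYYcongo, 984 and 604 in XYYohio, and 501 and 893 in XY. DMRT1A Minus had 357 and 664 in XYYcongo, 557 and 362 in XYYohio, and 208 and 441 in XY. The groups overlapped for both entries, although within each replicate number XYYcongo was above XY. On the Plus strand, DMRT1A had 264 and 335 in XYYcongo, 295 and 181 in XYYohio, and 240.0 and 356 in XY, and DMRT1B had 221 and 311 in XYYcongo, 261 and 158 in XYYohio, and 197 and 331 in XY. These Plus groups overlapped as well. In each of the 3 contrasts 0 of the 4 entries tested were called by limma, edgeR or DESeq2, and 0 had an unadjusted p under 0.05 in any of them. The background was 1.62% of 618 entries called in XYYcongo over XY, 0.647% in XYYohio over XY and 0 in XYYcongo over XYYohio. The largest fold change was 0.68 ± 0.68 for DMRT1A Minus in XYYcongo over XY (adjusted p = 0.929, limma), or 0.68 ± 0.63 with the replicate number as a block (adjusted p = 0.922), and it ran from 0.14 to 1.22 when 1 library was left out. In testis the main limma fit took the error of each entry wholly from the trend over all entries. The 0.68 is thus not the spread of DMRT1A Minus alone. A standard error of 0.68 leaves changes of that size undetectable. TE reads differed as much within the XY group (12.7% and 24.5% of non-spike reads) as between groups.

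The other LINE elements, 68 entries in ovary and 52 in testis, moved with the same background. In XXYcongo over XX, 45 of the 65 tested rose and 2 fell, with a median of 0.95. Under TMM 14 rose and 4 fell in this contrast. In XXYohio over XX, 3 rose and 2 fell. Among those called, the rule for named entries picked both strands of TART, a telomere retrotransposon, and of G2_DM, a LINE of the jockey clade. G2_DM Minus had 5726 and 5813 in XXYcongo, 2760 and 3322 in XXYohio, and 1032 and 917 in XX. TART Minus had 1899 and 1541 in XXYcongo, 1099.6 and 1430 in XXYohio, and 4174 and 4474 in XX, the same order of groups as DMRT1C Minus with XX highest. The other entries named by the rule were TART_B1 on both strands (lower in XXYcongo), DOC4_DM Plus, JOCKEY2 Plus and DOC5_DM Plus (higher in XXYcongo in 1 contrast each). In testis HELENA_RT Minus was the only other LINE called, with 21.2 and 26.4 in XYYcongo, 28.8 and 20.3 in XYYohio, and 1.00 and 4.03 in XY. Its calls were lost in DESeq2 and under TMM, median-of-ratios, snoRNA total and spike-in scaling.

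R1_DM, the founding element of the clade, differed from summed Rt1 in the ovary order of its group means, on both strands. Summed Rt1 averaged 46703 in XXYcongo, 26616 in XXYohio and 20499 in XX. R1_DM Minus had 13066 and 9840 in XXYcongo, 5178 and 5890 in XXYohio, and 6742 and 6515 in XX. It was highest in XXYcongo, as DMRT1B was, but lowest in XXYohio. R1_DM Plus had 9043 and 6025 in XXYcongo, 3466 and 3885 in XXYohio, and 6093 and 4995 in XX. Its XXYohio libraries were also the lowest, while those of XXYcongo and XX overlapped. By group means, DMRT1A Plus (3896 in XXYcongo, 1663 in XXYohio, 1957 in XX) and DMRT1C Plus (70.2, 52.4 and 60.4) had this order too. The XXYohio and XX libraries of DMRT1A Plus and of DMRT1C Plus overlapped. Of the 4 R1 entries in ovary, 1 (R1_DM Minus, 0.77 ± 0.21, adjusted p = 0.0072 in limma) rose in XXYcongo over XX and none was called in XXYohio over XX. In testis R1_DM Minus had 1227 and 1520 in XYYcongo, 1386 and 771 in XYYohio, and 907 and 1463 in XY, and neither of its strands was called.

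The TE entries whose profiles over the 6 libraries were most like that of summed Rt1 were found by the root mean square difference of centred log2 values. In ovary they were DOC2_DM Plus (0.0447), MAX_I Minus (0.0610) and GYPSY6A_LTR Minus (0.0750), against a median of 0.350 over 333 entries. The closest to DMRT1C Minus were DMLTR5 Minus (0.260), ROO_LTR Minus (0.261) and TART Plus (0.326), against a median of 0.781, so its nearest profiles were less close than those of the sum. In testis INVADER3_I Minus (0.0491), DMHMR1 Minus (0.0525) and TABOR_I Minus (0.0804) were closest to summed Rt1, against a median of 0.314 over 225 entries. All of these values share the 6 libraries of a tissue and their scale factors.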

How the data were processed

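Small RNA libraries of ovary and testis were deposited as 1 table per tissue. The submitters' processing notes name Trim Galore and Bowtie 1.1.1; no source used here gives the genome build, the repeat set, how reads with several matches were handled or where the scale factors came from. Elements as alike as the Rt1 families can share reads, so how reads were split between them is uncertain. The authors deposited whole read counts for replicate 1 of XX and of XY. For the other 10 libraries the deposited values are a normalized signal, reads multiplied by 1 factor per library, and 100% of values came out as whole reads within 0.01. The authors also deposited a p-value per entry, which was not used here.

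The test was limma 3.58.1 (R 4.3.3, eBayes with a trend) on log2(value + 1), a scale that understates changes of low entries. The 3 genotypes of a tissue shared 1 model; entries with a mean of at least 5 were tested, without spike-ins, two-sided, with Benjamini-Hochberg adjustment over all entries at 0.05. Strand ratios were tested with limma, without the trend, on log2 of Minus + 1 over Plus + 1. Their adjustment ran over the TE elements with a mean of at least 5 on each strand (158 in ovary and 99 in testis). Shares came from recovered reads. Count models on those reads (edgeR 4.0.16, DESeq2 1.42.0) and other scalings were alternatives. The scripts were tested on simulated data. Same-numbered testis libraries deviated together (r = 0.396, 0.414 and 0.353), and those of ovary less so (0.246, 0.0161 and 0.0651). The main model held genotype alone, and the replicate number entered only as a block in alternative fits. For summed Rt1, testis replicate 1 was above replicate 2 in XYYohio (2100 and 1305). It was below replicate 2 in XYYcongo (1660 and 2321) and XY (1146 and 2022). Named entries were every member, the R1 elements, the 3 nearest profiles, and in each contrast the 2 largest rises and falls among the other LINE entries called. The members, the lists and the tests were chosen with earlier results of these data known. PCR reads without molecular identifiers are not independent molecules.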

Additional observations from a re-analysis of the deposited data

How the results depend on the processing

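The Rt1 counts depended mainly on scale. In XXYcongo over XX, 4 entries were called as deposited, all higher, and 4 were again higher under the non-spike total. TMM and median-of-ratios scaling each called 1 higher and 1 lower. Spike-in scaling called 2, both higher, and 0 with the replicate block (chosen after seeing the data). With a library left out, the log2 fold change of DMRT1A Plus ran from 0.76 to 1.22. In XXYcongo over XXYohio the 5 calls became 0 under TMM, 0 under median-of-ratios, 0 under spike-in scaling with or without the block and 1 under the non-spike total, and 4 to 5 with a library left out. In XXYohio over XX the 1 call became 2 under median-of-ratios and in DESeq2, 0 under the snoRNA total, 0 under spike-in scaling with or without the block, 0 without the trend, and 0 to 1 with a library left out. The cause was not tested. Of the 2 calls in XXYohio over XX under median-of-ratios and in DESeq2, 1 was higher and 1 lower. The replicate block alone left the counts of XXYohio over XX, XXYcongo over XX and XXYcongo over XXYohio at 1, 4 and 5, and at 0 in testis. The snoRNA total also left XXYcongo over XX at 4 and XXYcongo over XXYohio at 5. Over all entries, edgeR on the recovered reads called 22, 384 and 395 in the ovary contrasts XXYohio over XX, XXYcongo over XX and XXYcongo over XXYohio.

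Some values of single entries, all on the log2 scale and none called after the change, turned sign with the setting. Under spike-in scaling, with or without the block, XXYohio over XX gave 1.06 for DMRT1A Plus, 1.05 for DMRT1C Plus and 0.0085 for DMRT1C Minus, and XXYcongo over XX gave 0.39 for DMRT1C Minus. DMRT1C Plus in XXYcongo over XX was -0.54 under TMM and -0.53 under median-of-ratios, and in XXYcongo over XXYohio -0.27 and -0.32; DMRT1C Minus in XXYcongo over XXYohio was -0.0215 under median-of-ratios. In XYYcongo over XY, DMRT1B Plus was -0.24 under TMM, -0.25 under median-of-ratios, -0.0125 under the non-spike total, -0.0675 under the snoRNA total and -0.39 under spike-in scaling with or without the block, and DMRT1A Plus was -0.25, -0.26, -0.0248, -0.0799 and -0.40 in the same order. In XYYcongo over XYYohio, DMRT1B Minus was -0.10 under TMM and -0.11 under spike-in scaling with or without the block, and DMRT1A Minus was -0.22 under TMM, -0.11 under median-of-ratios, -0.10 under the snoRNA total and -0.23 under spike-in scaling with or without the block.

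Leaving out a library gave ranges that include 0 for these: in XXYohio over XX, DMRT1C Plus -0.43 to 0.0252; in XYYohio over XY, DMRT1B Plus -0.70 to 0.0418, DMRT1A Plus -0.69 to 0.0144 and DMRT1B Minus -0.21 to 0.62; in XYYcongo over XY, DMRT1B Plus -0.33 to 0.41 and DMRT1A Plus -0.26 to 0.31; in XYYcongo over XYYohio, DMRT1B Minus -0.12 to 0.58 and DMRT1A Minus -0.33 to 0.56. Among log2 strand ratios the ranges were -0.28 to 0.0614 for DMRT1A in XXYcongo over XX, -0.21 to 0.0142 for DMRT1B and -0.091 to 0.69 for DMRT1C in XXYcongo over XXYohio, and -0.52 to 0.0287 for DMRT1A in XYYcongo over XYYohio. The cause was not tested for any of these. With 2 libraries a group and 1146 to 5014 Rt1 reads in testis, changes of the size of the testis standard errors could not be detected.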
